A study of Drosophila melanogaster with 19 samples.

Results

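The genes described here are SPE, nec and Spn88Eb, a serine protease of the Toll cascade and 2 serpins. They were chosen by name from the study's own list of genes with its array probes, and 4 of the 32162 probes on the array read them: 1 probe for SPE, 2 for nec and 1 for Spn88Eb. Both nec probes are annotated to the same transcript, so they are repeated readings of 1 RNA and not independent evidence. The 19 arrays come from adult Drosophila females of 3 genotypes, each dissected into gut and "rest", which is the fly without gut and head. In c564>nub-RB flies the c564-Gal4 driver expressed a UAS transgene of the B isoform of nub, a POU-domain transcription factor, and in c564>Pdm2-RB flies it expressed a UAS-Pdm2RB transgene. The control c564>+ carried the driver without a UAS target, in a w1118 background according to its label, so all 3 genotypes carry Gal4. The driver is active in fat body and midgut, and rest also holds muscle, cuticle, ovary and circulating cells, so rest is not pure fat body. Females were taken at 10 days of age from mixed-sex populations held at 25 °C. The c564>nub-RB rest group has 4 arrays and the other 5 groups have 3 each. Within a group, each array read the tissue of an independent pool of flies. Gut and rest of a genotype can come from the same pool, and whether arrays with the same number do is not given in the sources used here.

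In the Toll pathway of insects, recognition of microbes starts a chain of serine proteases in the hemolymph. SPE, the Spätzle-processing enzyme, is the last protease of that chain and cuts the precursor of Spätzle, the ligand of the Toll receptor, into its active form. Serpins are inhibitors that trap proteases, and Necrotic, the product of nec, restrains Toll activation in adult Drosophila by acting on the branch that starts with the protease Persephone. The fat body is the main source of such secreted proteins and of the antimicrobial peptides that Toll induces. Spn88Eb belongs to the serpin family, and its target protease is not stated in the sources used here.

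All values are normalized signals of 1-color Agilent arrays (quantile-normalized over the 19 arrays), and a log2 fold change is the difference between 2 group means of log2 signal. Signals of different probes are not comparable as amounts of RNA, so levels are compared only within a probe. The spots of all 4 probes were well above background on all 19 arrays, with none saturated. The 6 slides were scanned in 2 sessions, and the arrays had 65.2 to 83.8% of their spots well above background. A comparison was called when its adjusted p in limma, a linear model that moderates the variance of each probe across all probes, was below 0.01 (Benjamini-Hochberg). The overexpressed gene was read by 5 probes named nub, and which isoform each one reads is not given in the sources used here. Every c564>nub-RB array was above every c564>+ array with 4 of the 5 in rest and with 3 of the 5 in gut. Ranges were apart in this direction for 14.9% of all probes tested in rest and 14.3% in gut. With the same 3 probes every c564>Pdm2-RB gut array was also above every c564>+ gut array. The dimmest of them gave 38.0 to 72.4 in c564>Pdm2-RB gut, 35.7 to 60.7 in c564>nub-RB gut and 17.9 to 22.7 in c564>+ gut. The brightest probe overlapped in both tissues, with 56.6 to 99.6 in c564>nub-RB rest against 54.6 to 127 in c564>+ rest, and 7579 to 11087 in c564>nub-RB gut against 5613 to 10226 in c564>+ gut. All 5 were below a signal of 130 in rest, the level a group mean had to pass for a probe to be tested.

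The highest SPE signals were those of c564>nub-RB rest. SPE gave 12232, 19145, 10966 and 16315 on the 4 arrays of c564>nub-RB rest. It gave 6603, 8256 and 9888 in c564>Pdm2-RB rest, against 5010, 4553 and 4868 in c564>+ rest. All 4 arrays of c564>nub-RB rest lay above every one of the other 15 arrays. The share of all probes for which this holds was not computed. The 3 genotypes did not overlap in rest. Ranges were apart in this direction for 14.9% of all probes tested between c564>nub-RB and c564>+ rest, for 13.7% between c564>Pdm2-RB and c564>+ rest and for 8.92% between c564>nub-RB and c564>Pdm2-RB rest. In gut the signals were 8547, 6673 and 7632 in c564>nub-RB, 8943, 8598 and 6054 in c564>Pdm2-RB, and 7347, 8093 and 7727 in c564>+. All 3 genotypes overlapped in gut.

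The SPE signal was 2.98-fold higher in c564>nub-RB rest than in c564>+ rest (log2 fold change 1.57, SE 0.20), with a limma adjusted p of 0.0040. In such bulk samples, a change in the number of cells of a type and a change in RNA per cell cannot be told apart. Of the 4 probes, only that of SPE was called in this comparison, in which 4.31% of the 16491 probes tested were called. In contrast, SPE differed by -0.03 (SE 0.15) between c564>nub-RB and c564>+ gut, and 0 of the 4 probes were called there (0.497% of all probes tested). The interaction, which is the effect in rest minus the effect in gut, was 1.60 for SPE (SE 0.26, limma adjusted p = 0.0096), and SPE was again the only called member (0.824% of all probes tested). The names of the 4 probes come from a table that is ordered by the change in c564>nub-RB rest, so membership is not independent of that contrast.

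The call for SPE in rest did not survive every alternative, although its fold change moved little. With 1 array left out the log2 fold change stayed between 1.43 and 1.70, but the adjusted p was 0.0158 without replicate 4 of c564>nub-RB, 0.0203 without replicate 1 of c564>+, 0.0180 without replicate 3 of c564>+ and 0.0169 without replicate 4 of c564>+. The interaction was called with replicate 3 of c564>nub-RB rest left out (adjusted p = 0.0067) and with replicate 1 of c564>nub-RB gut left out (0.0059), and its adjusted p was between 0.0118 and 0.0307 with any other of the 13 arrays left out. The call in rest was also lost, at an adjusted p of 0.0690, when slide was a fixed block, and at 0.0246 with the replicate number as a block. The interaction was 1.46 and not called with the replicate number as a block (adjusted p = 0.0328), nor when rest and gut of the same genotype and number were taken as 1 pool (0.0358). On each of the 2 slides that held both genotypes SPE was higher in c564>nub-RB rest, by 1.70 on slide 5 and by 1.43 on slide 6 on the log2 scale. Within the scan sessions the differences were 1.98 (1 array of each genotype) and 1.44 (3 arrays of c564>nub-RB and 2 of c564>+).

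**Figure D1:**
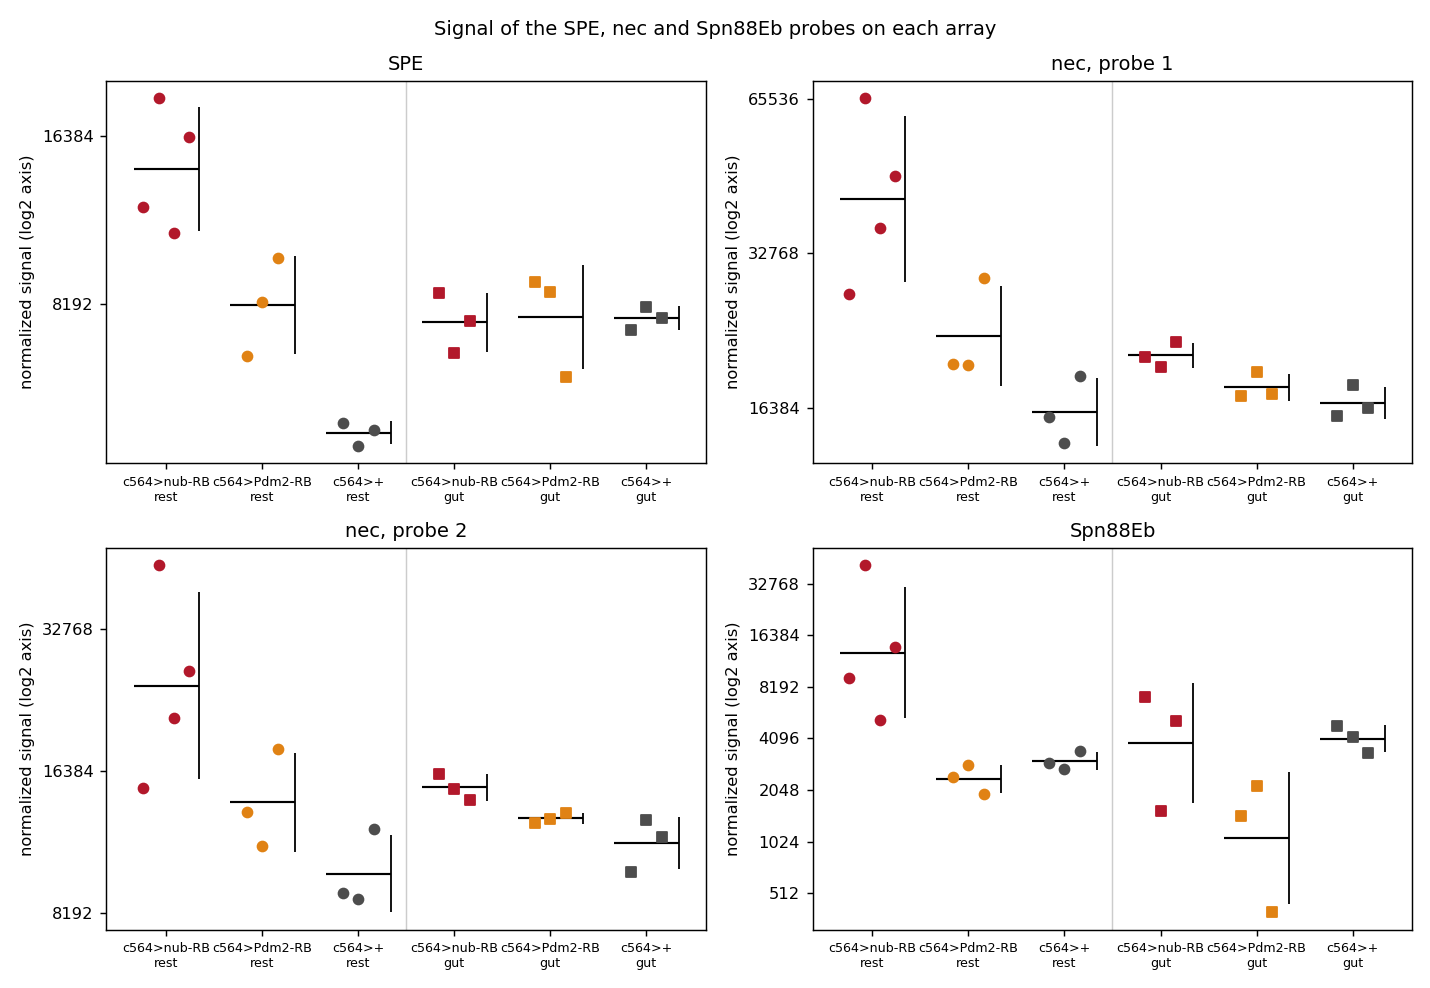
Normalized signal of each probe (log2 axis) on each of the 19 arrays by genotype and tissue; circles are rest and squares are gut, the horizontal line is the mean of the log2 values and the vertical line ±1 SD. The SPE points of c564>nub-RB rest, from 10966 to 19145, lie above all other groups, while the Spn88Eb points of the same group spread from 5234 to 42194.

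In c564>Pdm2-RB rest SPE was 1.69-fold higher than in c564>+ rest (log2 0.76, SE 0.17). The ranges were apart, as for 13.7% of all probes tested in this direction, but the limma adjusted p was 0.0782 and 0 of the 4 probes were called (0.863% of all probes tested). Between c564>nub-RB and c564>Pdm2-RB rest the SPE difference was 0.81 (SE 0.23, adjusted p = 0.105), again with ranges apart (8.92% of all probes tested) and with 0 of the 4 probes called (0.99% of all probes tested). This last difference was 1.37 in the first scan session (1 array of c564>nub-RB and 2 of c564>Pdm2-RB), 0.39 in the second (3 and 1 arrays) and 0.15 on the only slide that held both. For c564>Pdm2-RB over c564>+ rest it was 0.60 and 1.05 in the sessions and 0.44 on the shared slide. These comparisons share the arrays of c564>Pdm2-RB or c564>+ with each other and with the comparison above, and they are not independent. In gut, SPE in c564>Pdm2-RB differed from c564>+ by 0.01 (SE 0.18) and from c564>nub-RB, taken as c564>nub-RB over c564>Pdm2-RB, by -0.03 (SE 0.20). No member was called in either (0.344% and 0.339% of all probes tested).

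The order of the SPE group means was c564>nub-RB rest, c564>Pdm2-RB rest, c564>Pdm2-RB gut, c564>+ gut, c564>nub-RB gut and c564>+ rest. On the log2 scale, c564>nub-RB rest had a mean of 13.80 ± 0.37 (SD, n = 4), and c564>+ rest had 12.23 ± 0.07 (SD, n = 3). The other 4 groups lay between 12.89 and 12.99, and neighbours among them overlapped. Thus the top and the bottom group stood apart from their neighbours, by 0.81 and 0.66 on the log2 scale, and both were rest. Ranges were apart for 8.92% of all probes tested between the top group and its neighbour. The share for the bottom group and its neighbour was not computed.

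nec followed the same order in rest, with larger scatter among replicates. Its brighter probe (A_09_P104175) gave 27340, 65613, 36785 and 46341 in c564>nub-RB rest, 19943, 19867 and 29375 in c564>Pdm2-RB rest and 15774, 14020 and 18935 in c564>+ rest. The second probe (A_09_P043831) gave 15060, 44865, 21277 and 26713 in c564>nub-RB rest, 13408, 11365 and 18263 in c564>Pdm2-RB rest and 9036, 8756 and 12330 in c564>+ rest. With both probes every array of c564>nub-RB rest was above every array of c564>+ rest, which holds for 14.9% of all probes tested. The highest c564>Pdm2-RB array, replicate 4, exceeded the lowest c564>nub-RB array, replicate 1, with both probes.

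The log2 fold changes of nec in c564>nub-RB rest over c564>+ rest were 1.38 (SE 0.29, limma adjusted p = 0.0237) for the brighter probe and 1.33 (SE 0.35, limma adjusted p = 0.0489) for the second probe. Neither passed the threshold of 0.01, while both were below 0.05. Among the alternatives, the brighter probe was called with slide as a random block (adjusted p = 0.0070), with the scan session as a block (0.0081) and in 1 model of all 6 groups (0.00070). The second probe was not called with either block (0.0177 and 0.0119) but was called in the model of all 6 groups (0.0038). Leaving out 1 array gave 1.16 to 1.58 for the brighter probe, with adjusted p of 0.0116 to 0.0898, and 1.04 to 1.57 for the second, with 0.0217 to 0.155. On slides 5 and 6 the log2 differences were 1.55 and 0.96 for the brighter probe and 1.56 and 0.78 for the second.

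In c564>Pdm2-RB rest over c564>+ rest nec differed by 0.49 (SE 0.20, adjusted p = 0.283) and 0.50 (SE 0.22, adjusted p = 0.312) with the 2 probes. The difference was not the same in the 2 scan sessions. With the brighter probe it was 0.07 in the first, with 2 arrays of c564>Pdm2-RB and 1 of c564>+. It was 0.98 in the second, with 1 and 2 arrays. The second probe gave 0.0017 and 1.04 in the same sessions. Replicate 4 is the only c564>Pdm2-RB rest array of the second session, and it had the highest nec signal of its group. Session and pool therefore cannot be told apart here, and a dependence on session was not tested.

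The nec gut signals varied little. The brighter probe gave 20627, 19681 and 22037 in c564>nub-RB gut, 17299, 19305 and 17445 in c564>Pdm2-RB gut and 15830, 18138 and 16388 in c564>+ gut. Here c564>nub-RB was above both other genotypes on every array, by 0.31 (SE 0.13) over c564>+ on the log2 scale and by 0.21 (SE 0.11) over c564>Pdm2-RB. Ranges were apart in this direction for 14.3% and 11.2% of all probes tested, and the adjusted p were 0.286 and 0.514. The second probe gave 16170, 15032 and 14238 in c564>nub-RB gut, 12686, 12982 and 13349 in c564>Pdm2-RB gut and 10016, 12867 and 11884 in c564>+ gut. Its difference between c564>nub-RB and c564>+ gut was 0.39 (SE 0.15, adjusted p = 0.248). The nec interaction of c564>nub-RB and tissue was 1.07 (SE 0.35, adjusted p = 0.0847) and 0.94 (SE 0.43, adjusted p = 0.198). So a difference of the nec effect between tissues was not called.

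The 2 nec probes moved together. Their log2 difference on an array, the brighter probe minus the second, was between 0.35 and 0.86, and their Pearson r over the 19 arrays was 0.962. Since both read the same RNA of the same samples, this describes the measurement. The difference lay between 0.55 and 0.86 on rest arrays and between 0.35 and 0.66 on gut arrays. In the order of means the brighter probe ran c564>nub-RB rest, c564>Pdm2-RB rest, c564>nub-RB gut, c564>Pdm2-RB gut, c564>+ gut and c564>+ rest. The second probe placed c564>nub-RB gut before c564>Pdm2-RB rest, groups that overlapped with both probes. Of the neighbours in these orders, only c564>nub-RB gut and c564>Pdm2-RB gut were apart with the brighter probe, and none were apart with the second.

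**Figure D2:**
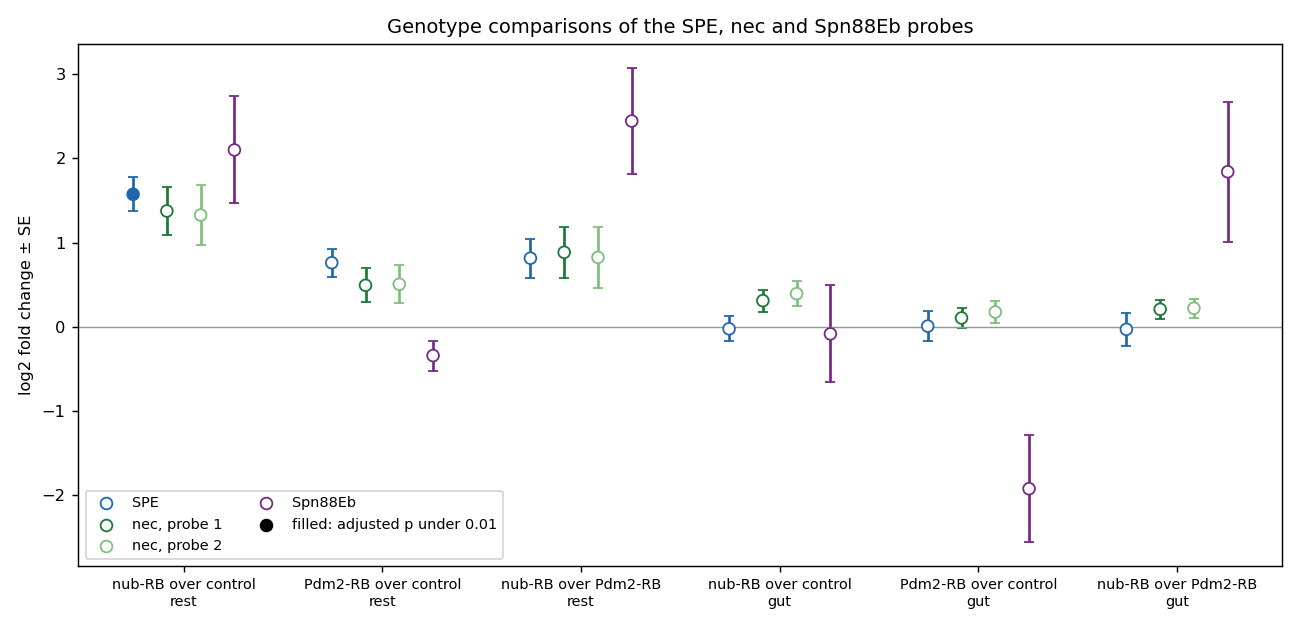
Log2 fold changes with their standard errors for the 6 genotype comparisons, with 1 point per probe and filled points for an adjusted p below 0.01. SPE in c564>nub-RB rest over c564>+ rest, at 1.57, is the only filled point, and the Spn88Eb bars are the longest in 5 of the 6 comparisons.

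Spn88Eb had the largest fold change of the 3 genes in c564>nub-RB rest and the widest spread. Its signals were 9208, 42194, 5234 and 13958 in c564>nub-RB rest, 2428, 2857 and 1950 in c564>Pdm2-RB rest, and 2959, 2710 and 3451 in c564>+ rest. Every c564>nub-RB array was above every array of the other genotypes in rest (ranges were apart for 14.9% of all probes tested over c564>+ and for 8.92% over c564>Pdm2-RB), but the highest was 8.06 times the lowest. For SPE this ratio was 1.75 in the same group. Replicate 2 was the highest c564>nub-RB rest array with all 4 probes, and replicate 3 was the lowest for SPE and Spn88Eb but not for nec.

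Spn88Eb was 4.29-fold higher in c564>nub-RB rest than in c564>+ rest (log2 2.10, SE 0.64). The limma adjusted p was 0.0704, so it was not called. Without replicate 2 of c564>nub-RB the log2 fold change was 1.53 (SE 0.35, adjusted p = 0.0509), and without replicate 3 it was 2.54 (SE 0.54, adjusted p = 0.0390). On the slides that held both genotypes the log2 difference was 2.24 (slide 5) and 1.76 (slide 6). It was 3.61 in the first scan session, with 1 array of each genotype, and 1.63 in the second. Between c564>nub-RB and c564>Pdm2-RB rest it was 2.45 (SE 0.63, adjusted p = 0.0877), while c564>Pdm2-RB rest differed from c564>+ rest by -0.34 (SE 0.18, adjusted p = 0.376). Unlike SPE and nec, the mean of Spn88Eb in c564>Pdm2-RB rest was thus below that of c564>+ rest, with overlapping ranges.

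In gut, Spn88Eb gave 7135, 1545 and 5205 in c564>nub-RB, 1454, 2168 and 395 in c564>Pdm2-RB, and 4861, 4202 and 3357 in c564>+. Here the c564>nub-RB arrays scattered on both sides of c564>+ (log2 difference -0.09, SE 0.58). All 3 c564>Pdm2-RB gut arrays were below all 3 c564>+ gut arrays, as was the case for 11.7% of all probes tested in this direction. The log2 difference was -1.93 (SE 0.63, adjusted p = 0.212). Leaving out replicate 4 of c564>Pdm2-RB, the array at 395, gave -1.21 (SE 0.26, adjusted p = 0.111). The difference was -3.25 in the first scan session, which held that array and 2 of c564>+, and -1.45 in the second. The interaction of c564>nub-RB and tissue was 2.19 (SE 0.95, adjusted p = 0.172). For c564>Pdm2-RB it was 1.58 (SE 0.71, adjusted p = 0.421), and no member was called in that interaction (0.195% of all probes tested).

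The group means of Spn88Eb ran from c564>nub-RB rest through c564>+ gut, c564>nub-RB gut, c564>+ rest and c564>Pdm2-RB rest to c564>Pdm2-RB gut. Only the first 2 groups in this order were apart, and the share of all probes for which this holds was not computed. The log2 SD was 1.27 in c564>nub-RB rest (n = 4), 1.28 in c564>Pdm2-RB gut and 1.17 in c564>nub-RB gut, and between 0.18 and 0.28 in the other 3 groups (n = 3 each).

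**Figure D3:**
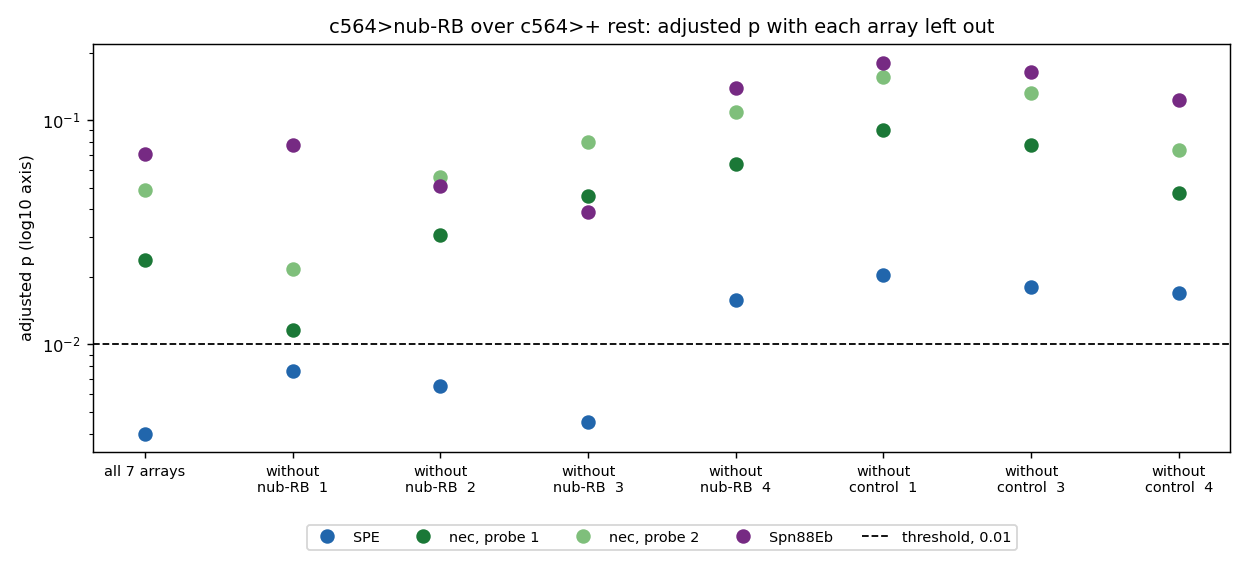
Adjusted p of the comparison of c564>nub-RB and c564>+ rest (log10 axis) with all 7 arrays and with each array left out in turn, for the 4 probes; the dashed line is the threshold of 0.01. SPE is below the line with all arrays (0.0040) and above it without replicate 4 of c564>nub-RB or any 1 of the 3 c564>+ arrays, and the other probes are above the line throughout.

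The tissues were also compared within each genotype. In c564>+ SPE was lower in rest than in gut, with a log2 difference of -0.68 (SE 0.11, limma adjusted p = 0.0021), and 1 of the 4 probes was called. Most probes differ between these tissues, and 59.4% of all probes tested were called. In c564>nub-RB, SPE was higher in rest than in gut by 0.92 (SE 0.22, adjusted p = 0.0074), again as the only called member (58.3% of all probes tested). In c564>Pdm2-RB the difference was 0.07 (SE 0.22, adjusted p = 0.787), with 0 of the 4 probes called (60.8%). The order of the tissues for SPE was therefore opposite in c564>nub-RB and c564>+, with ranges apart in both (45.8% of all probes tested in the direction of c564>nub-RB and 30.9% in that of c564>+). On the only slide with both tissues the difference was 1.16 in c564>nub-RB and -0.55 in c564>+.

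The brighter nec probe was higher in rest than in gut by 1.01 (SE 0.28, adjusted p = 0.0146) in c564>nub-RB and by 0.33 (SE 0.19, adjusted p = 0.151) in c564>Pdm2-RB, and it differed by -0.06 (SE 0.15, adjusted p = 0.755) in c564>+. The second probe gave 0.72 (SE 0.34) in c564>nub-RB, 0.11 (SE 0.19) in c564>Pdm2-RB and -0.22 (SE 0.19) in c564>+. Spn88Eb gave 1.75 (SE 0.80) in c564>nub-RB, 1.15 (SE 0.63) in c564>Pdm2-RB and -0.44 (SE 0.18) in c564>+. None of these 3 probes was called in any genotype in the main setting. In c564>nub-RB the brighter nec probe was called in 3 of 12 alternatives. It was also called with replicate 1 of c564>nub-RB rest left out (limma adjusted p = 0.0048). The median of all probes tested was 0.33 to 0.40 in these comparisons, and scaling each array to its 75th percentile lowered it to 0.11 in c564>nub-RB, 0.08 in c564>Pdm2-RB and 0.01 in c564>+. With that scaling SPE was 0.80 higher in rest in c564>nub-RB (adjusted p = 0.0156, no longer called) and differed by -0.76 in c564>+ (adjusted p = 0.0020).

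**Figure D4:**
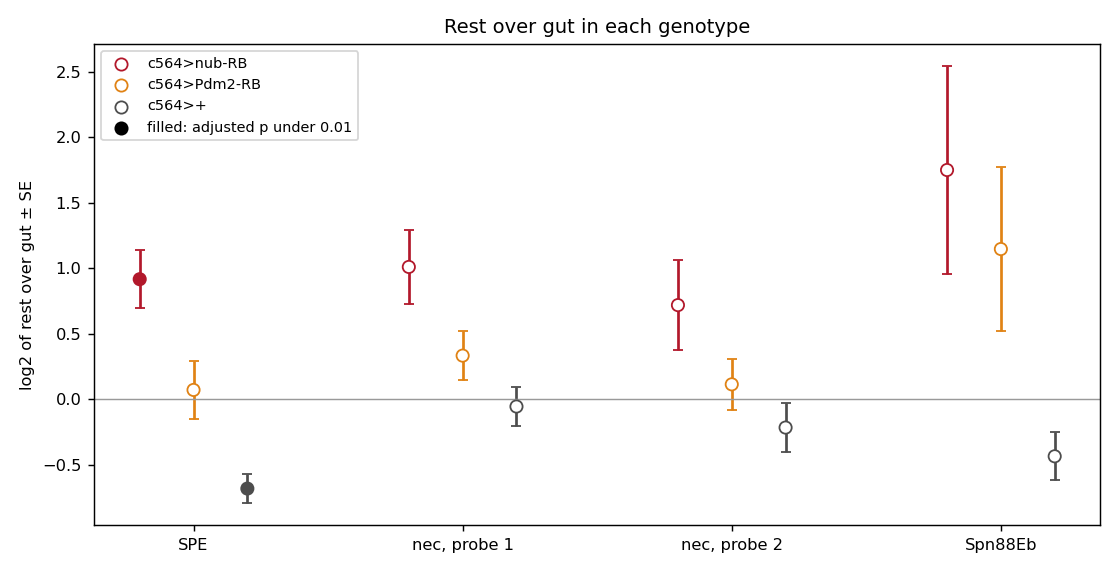
Log2 of rest over gut with standard errors for each probe in c564>nub-RB, c564>Pdm2-RB and c564>+, with filled points for an adjusted p below 0.01. SPE lies at 0.92 in c564>nub-RB, 0.07 in c564>Pdm2-RB and -0.68 in c564>+, and all 4 probes run in this order of genotypes.

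The SPE call in c564>nub-RB was lost with the replicate number, which rest and gut share, as a block (log2 difference 0.78, limma adjusted p = 0.0211). That in c564>+ was not lost (-0.68, limma adjusted p = 0.0098). Of 12 alternatives, SPE was called in 6 in c564>nub-RB and in 10 in c564>+. Every c564>nub-RB gut array was scanned in the first session, with only 1 of the rest arrays. Tissue and session are therefore largely confounded in c564>nub-RB. Within the first session the SPE difference was 1.34 (1 array of rest and 3 of gut). The call in c564>nub-RB also depended on single arrays. Leaving out replicate 3 of c564>nub-RB rest kept SPE called (adjusted p = 0.0063), whereas leaving out any other 1 of the 7 arrays gave an adjusted p between 0.0113 and 0.0281. In c564>+ the adjusted p was 0.0102 without replicate 1 of rest and 0.0121 without replicate 3 of rest, and 0.0043 to 0.0095 without any 1 of the other 4 arrays.

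Summed signals of marker genes of other cell types also differed between the genotypes, and their part in the results above was not tested. Of 7 hemocyte markers 6 could be named, and their summed signal was 11996 to 20920 in c564>nub-RB rest, 5715 to 8730 in c564>Pdm2-RB rest and 2626 to 4249 in c564>+ rest. In gut it was 2050 to 5971 in c564>nub-RB, 3820 to 8586 in c564>Pdm2-RB and 8719 to 16569 in c564>+. There c564>+ was thus the highest and not the lowest, while c564>nub-RB and c564>Pdm2-RB overlapped. The 2 crystal cell genes named, PPO1 and PPO2, summed to 23578 to 35863 in c564>nub-RB rest, 8100 to 15086 in c564>Pdm2-RB rest and 2431 to 6133 in c564>+ rest. Of 11 fat body genes 6, mostly larval serum proteins, could be named and summed to 3507 to 28818, 3035 to 9164 and 543 to 866 in the same order.

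Digestive enzyme genes of the gut also differed in rest. Of 20 such genes 11 could be named. Their summed signal was 436285, 3112, 11641 and 456787 in c564>nub-RB rest and 85323, 3758 and 3690 in c564>Pdm2-RB rest, against 771602, 465904 and 1120039 in c564>+ rest. It was 3199508 to 3471266 on the gut arrays. All 7 arrays of c564>nub-RB and c564>Pdm2-RB rest were below all 3 of c564>+ rest.

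The other genes of the cascade are known only in part, since 5 of the 25 on the list besides SPE could be named and others, such as spz and Tl, were not analysed here. All 5 names come from the table ordered by the change in c564>nub-RB rest, so genes that are high there were favoured and the counts are no independent evidence of direction. In c564>nub-RB rest 3 of these 5 were called (4.31% of all probes tested), all higher than in c564>+ rest, with a median log2 fold change of 1.87 over the 5 and of -0.05 over all probes tested. PGRP-SA, a receptor for bacterial peptidoglycan upstream of the proteases, was 2906 to 5955 in c564>nub-RB rest and 1177 to 1380 in c564>+ rest (log2 fold change 1.71, SE 0.26, adjusted p = 0.0080). PGRP-SD, a second recognition protein, rose by 1.87 (SE 0.23, limma adjusted p = 0.0032), which is also the median over the 5. Its signal was 100 to 124 in c564>+ rest, below the signal threshold. It was therefore tested only through c564>nub-RB rest, where it was 282 to 563. GNBP-like3, a relative of the glucan-binding proteins, rose by 3.19 (SE 0.52, limma adjusted p = 0.0095). The list counts it with the cascade, and its place there is not stated in the sources used here.

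The 2 named members between recognition and SPE were not called. spirit, a serine protease required upstream of SPE, had a log2 fold change of 1.33 (SE 0.42, adjusted p = 0.0800), and sphe (spheroide), a protease homolog, of 2.23 (SE 0.97, adjusted p = 0.154). Both had a mean below the signal threshold in c564>+ rest, where spirit was 66.7 to 110, and were tested only through c564>nub-RB rest. The median over the 5 genes includes them and PGRP-SD, which was also tested only through c564>nub-RB rest. None of the 5 was called in c564>nub-RB gut, c564>Pdm2-RB rest, where sphe was below the signal threshold and was not tested, or c564>Pdm2-RB gut. In c564>+ 4 of the 5 were called lower in rest than in gut (59.4% of all probes tested were called in either direction), as was SPE, and PGRP-SD differed by -0.47 (adjusted p = 0.0801).

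Among the serpins only Spn1 could be named besides nec and Spn88Eb. It has been linked to Toll activation by fungal recognition in Drosophila. Spn1 was 6444 to 11940 in c564>nub-RB rest, 4654 to 5600 in c564>Pdm2-RB rest and 2838 to 3476 in c564>+ rest, without overlap (ranges were apart in these directions for 14.9%, 13.7% and 8.92% of all probes tested, as for SPE). It rose by 1.49 (SE 0.23, adjusted p = 0.0078) in c564>nub-RB rest and differed by 0.71 (SE 0.14, adjusted p = 0.0531) in c564>Pdm2-RB rest and by 0.03 (SE 0.13, adjusted p = 0.935) in c564>nub-RB gut. In c564>+ it was lower in rest than in gut by a log2 difference of -1.02 (SE 0.13, adjusted p = 0.00088). In each of these 4 comparisons Spn1 was on the same side of the threshold as SPE, but in others the 2 genes parted. In rest over gut of c564>nub-RB, SPE was called and Spn1 was not (0.45, SE 0.23, limma adjusted p = 0.120). The same was so in the interaction of c564>nub-RB and tissue, where Spn1 had 1.47 (SE 0.29, limma adjusted p = 0.0171). The name of Spn1 also comes from the table ordered by the change in c564>nub-RB rest. Its rise there was thus favoured by the choice, and the likeness to SPE is no independent evidence.

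Of 14 secreted peptide genes that Toll induces, 13 could be named. In c564>nub-RB rest 12 of the 13 were called, all higher, with a median log2 fold change of 2.70 (-0.05 over all probes tested, of which 4.31% were called). BomS1, a short Bomanin peptide, was 16637 to 56632 in c564>nub-RB rest and 3077 to 3853 in c564>+ rest (log2 fold change 2.87, SE 0.41, adjusted p = 0.0062). Drs, which encodes the antifungal peptide Drosomycin, had the remaining value of 3.81 (SE 0.98, adjusted p = 0.0453). In c564>Pdm2-RB rest 1 of the 13 was called (0.863% of all probes tested), IM10, with 1.89 (SE 0.20, adjusted p = 0.0082). None was called in c564>nub-RB gut or c564>Pdm2-RB gut, where the medians were 0.62 and 0.12. The names of these genes all come from the table ordered by the change in c564>nub-RB rest, and therefore the counts are not independent evidence of direction.

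Over the 19 arrays, the 3 named genes with the pattern most like SPE were CG9691 (Pearson r of log2 signals 0.967), CG5390 (0.955) and BomS1 (0.947), among 684 candidate genes. For the brighter nec probe they were Irc, an immune-regulated catalase (0.970), BomS3 (0.962) and BomS1 (0.954), and for the second nec probe Sp212 (0.918), BomT2 (0.917) and BomS1 (0.915). The pattern of Spn88Eb had weaker matches, CG9649 (0.842), CG14400 (0.832) and CG2217 (0.828). BomS1 was among the first 3 for SPE and for both nec probes but not for Spn88Eb. Of the 1386 named probes, 800 took their symbol from the table ordered by the change in c564>nub-RB rest. Genes with such a change were therefore favoured among the candidates, and most probes of the array were not among them. These arrays share the groups, slides and normalization, so the coefficients describe likeness only.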

How the data were processed

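Per the labels and the authors' methods, RNA of each pool was labelled with Cy3, hybridized to a 1-color Agilent array and reduced by Feature Extraction 10.7.3.1 to a background-subtracted intensity per spot, which the authors quantile-normalized in Partek. Here the deposited processed intensities of unmarked spots were averaged per probe, quantile-normalized over 19 arrays and log2-transformed. Of all values, 99.92% lay within 0.01 (log2) of the authors' normalized table, whose deposited linear signal served as an alternative. Probes with a mean signal above 130 in at least 1 compared group were tested with limma 3.58.1 (R 4.3.3) on the arrays of the comparison, after the fit was tested on simulated data. Fold changes and p-values of the authors' tables were not used. Gene symbols came from their supplementary tables (the first 996 rows of the largest) and RefSeq accessions, for 1386 probes. The scripts ran in Python 3.11.15 with matplotlib 3.10.9. Named genes were the members, called genes of 3 lists, and the 3 most similar genes to each probe. Markers of hemocytes, crystal cells, gut, fat body, ovary (10 genes) and male-specific genes (4) were listed, and none of the last 2 lists could be named. The members and lists were chosen with earlier results of these data known. The control label gives the driver as c546, read as c564 from the series design. Sequences were not used here.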

Additional observations from a re-analysis of the deposited data

Results flagged for a closer look

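SPE was singled out because its change in c564>nub-RB over c564>+ differed between the tissues by a test of the difference itself. The interaction of genotype and tissue was 1.60 on the log2 scale (SE 0.26, limma adjusted p = 0.0096), made up of 1.57 in rest and -0.03 in gut. It was not called with the replicate number as a block (adjusted p = 0.0328). No array of c564>nub-RB rest stood far enough from the other 3 to be singled out with any of the 4 probes. The largest gap of an end value, as a share of the range, was 0.53, for Spn88Eb. Groups of 3 were not examined in this way.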

How the results depend on the processing

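The number of called members changed in c564>nub-RB over c564>+ rest, where 1 of 4 probes was called in the main setting (710). Numbers in brackets are the counts of all probes called in the same setting, beside which the member counts are to be read. The number of called members was 0 without a signal threshold (386) and with slide as a fixed block (0). It was also 0 with the replicate block (80) and with the Methods' t-test on the spread of each probe (86). It was 2 with slide as a random block (1534) or the scan session as a block (1084). It was 3 in 1 model of 6 groups (1136) or at a false discovery rate of 5% (2254), and 4 with the Methods' t-test on 1 standard deviation for all probes (1178). With that last test 1 member instead of 0 was called in c564>Pdm2-RB over c564>+ gut (363) and in c564>nub-RB over c564>Pdm2-RB rest (562). In rest over gut of c564>nub-RB the number of called members was 1 in the main setting (10135). It was 0 with 75th-percentile scaling (9204), no threshold (10967), the replicate block (6079) or the t-test on each probe's spread (8456). It was 2 in the 6-group model (11593) or at 5% (12803). In rest over gut of c564>+, where it was 1 in the main setting (10409), it was 0 without a threshold (10376) or with 1 standard deviation (7136). In the interaction of c564>nub-RB and tissue the number of called members was 1 in the main setting (148). It was 0 with 75th-percentile scaling (109), no threshold (41), the filter on spots well above background (91), slide as a fixed block (0) or the replicate block (18). It was also 0 with the t-test on each probe's spread (66) and with that on 1 standard deviation (716). The replicate block within genotype, an alternative chosen after seeing the data, gave 0 as well (5). Leaving out 1 array gave 0 to 1 in these 4 comparisons. In rest over gut of c564>nub-RB the member called was SPE or the brighter nec probe, depending on the array left out.

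All sign changes were of members that were not called. In c564>nub-RB over c564>+ gut SPE was 0.0031 with normexp and 0.0304 with slide as a fixed block, and Spn88Eb was 0.0044 with 75th-percentile scaling, 0.698 with slide as a fixed block and 0.0382 with the scan session as a block. In c564>Pdm2-RB over c564>+ gut SPE was -0.0147 with 75th-percentile scaling, -0.0652 with the scan session and -0.0343 with the replicate block. In c564>nub-RB over c564>Pdm2-RB gut SPE was 0.32 with the scan session and 0.13 with the replicate block. In rest over gut of c564>Pdm2-RB, 75th-percentile scaling gave -0.14 and -0.15 for nec, and in c564>+ the scan session gave 0.0226 for the brighter nec probe. In the interaction of c564>Pdm2-RB and tissue slide as a fixed block gave -0.0067 and -0.0493 for nec. With 1 array left out, SPE ranged from -0.11 to 0.0658 in c564>nub-RB over c564>+ gut, from -0.10 to 0.18 in c564>Pdm2-RB over c564>+ gut, from -0.21 to 0.0711 in c564>nub-RB over c564>Pdm2-RB gut and from -0.11 to 0.22 in rest over gut of c564>Pdm2-RB. In the same way Spn88Eb ranged from -0.53 to 0.57 in c564>nub-RB over c564>+ gut, the second nec probe from -0.0750 to 0.27 in rest over gut of c564>Pdm2-RB and the brighter one from -0.17 to 0.0446 in rest over gut of c564>+. The cause was not tested.

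The count over all probes varied from 0 to 2254 in c564>nub-RB over c564>+ rest (710 in the main setting), from 0 to 716 in gut (83), from 0 to 715 and 0 to 448 for c564>Pdm2-RB over c564>+ rest and gut (142 and 57), from 26 to 579 and 0 to 276 for c564>nub-RB over c564>Pdm2-RB rest and gut (162 and 56), and from 0 to 1494 and 0 to 515 in the interactions (148 and 35). Slide could not be a block in the comparisons of c564>Pdm2-RB with another genotype or in rest over gut. Same-numbered arrays of c564>nub-RB and c564>+ correlated by 0.09, 0.27 and 0.08 in rest and by -0.47, -0.40 and -0.38 in gut (deviations from group means). Those of c564>Pdm2-RB and c564>+ correlated by -0.11 and -0.05 in rest and by 0.65 and 0.41 in gut. Between c564>nub-RB and c564>Pdm2-RB the values were 0.42, 0.11 and 0.05 in rest and -0.20 and -0.34 in gut. The signs were mixed, so the numbers were not read as pairs in the main setting, and the replicate block was an alternative. Same-numbered rest and gut arrays of a genotype correlated by -0.055 to 0.177. With the replicate block the SPE difference between c564>nub-RB and c564>+ rest was 1.43 on the log2 scale (limma adjusted p = 0.0246). No spot of the members was dim or saturated, and the number of arrays limits the precision.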
